A study of Homo sapiens with 6 samples.

Results

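Desmosomes and adherens junctions hold epithelial cells together. The genes described here encode 4 desmosomal cadherins (DSG2, DSG3, DSC2 and DSC3), 4 proteins of the desmosomal plaque (JUP, PKP1, PKP3 and DSP), the membrane protein PERP and the classical cadherin CDH1. They were listed by gene symbol, with earlier results of these data known, and all 10 were found, once each, among the 58735 genes of the table. The cells were SZ95, an immortalised line of human sebocytes, the lipid-secreting cells of the sebaceous gland. In 3 libraries the cells, labelled WT, had received a mock plasmid, and in 3 they had received a plasmid for overexpression of TRPV3, a calcium-permeable cation channel. All 6 carry a label of 24 h, and the design text calls the replicates biological. The sources used here do not give the promoter of the plasmid, the share of cells that took it up or the make-up of the mock plasmid. Because the RNA came from whole cultures, fewer cells of a kind and less RNA per cell cannot be told apart.

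In a desmosome, the desmogleins and desmocollins reach across the gap between neighbouring cells. Inside the cell they bind plakoglobin (JUP) and the plakophilins, which in turn hold desmoplakin (DSP), the protein that anchors keratin filaments. CDH1 (E-cadherin) forms the core of the adherens junction, where it binds catenins linked to actin. In skin these junctions give the tissue its resistance to mechanical stress, and calcium outside the cell is needed for cadherins to bind each other.

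Values are FPKM, the number of fragments divided by gene length in kilobases and by a depth factor. The libraries held 16015998 to 18365785 reads recovered from these values, and each of the 10 genes had between 571 and 24244 reads in a library. TRPV3 itself was at 0.437, 0.359 and 0.415 FPKM in mock replicates 1 to 3 and at 536, 671 and 738 FPKM in TRPV3 replicates 1 to 3, so the libraries matched their labels. TRPV3 replicate 1 stood apart from the other libraries. The chi-square per degree of freedom over genes was 46.6 and 54.2 between it and the other 2 TRPV3 libraries, against 2.52 between those 2 and 3.33 to 7.04 among the mock libraries. The fits of the 10 genes are therefore given with and without it. Of 14 sebocyte markers 9 had a mean of at least 1 FPKM, led by the keratin KRT7 at 513 ± 15.4 FPKM with mock (SD, n = 3), while AWAT1, AWAT2 and MC5R, genes of mature sebocytes, had at most 3 reads in any library. The mesenchymal filament gene VIM also had at most 3 reads. Of its list of 8 mesenchymal genes, however, 3 had a mean of at least 1 FPKM, led by FN1 at 44.7 to 86.9 FPKM. That list summed to between 62.3 and 98.5 FPKM per library. Markers of fibroblasts, melanocytes, endothelium and leukocytes summed to between 1.09 and 5.19 FPKM per list and library.

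The 10 genes were expressed at levels spread from 3.74 to 213 FPKM with the mock plasmid, and none was called changed with TRPV3. CDH1 was the most abundant and DSC2 the least. In TRPV3 replicates 2 and 3 the genes lay close to the mock libraries. In TRPV3 replicate 1, by contrast, 7 of the 10 (all 4 desmosomal cadherins, PKP1, DSP and CDH1) were lower than in every other library and the remaining 3 (JUP, PKP3 and PERP) were higher than in every other library.

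In order of mean level with mock, the genes were CDH1 (213 FPKM), JUP (131), DSG2 (82.7), PKP3 (45.3), DSP (37.5), PERP (36.0), PKP1 (29.1), DSG3 (20.8), DSC3 (7.36) and DSC2 (3.74). FPKM is a level per length, so these values can be set against each other, but only roughly. The length used covers all exons of a gene and can exceed its longest annotated transcript. For JUP the lengths were 4942 and 3497 bases and for PKP3 3787 and 2809, while for DSG3 (5525) and PERP (4290) they were equal. Small steps in the order, and the shares and ratios below, carry this limit. Among neighbours in this order only DSP and PERP had overlapping mock values. The widest step was from DSG3 to DSC3, a 2.83-fold ratio of means.

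**Figure D1:**
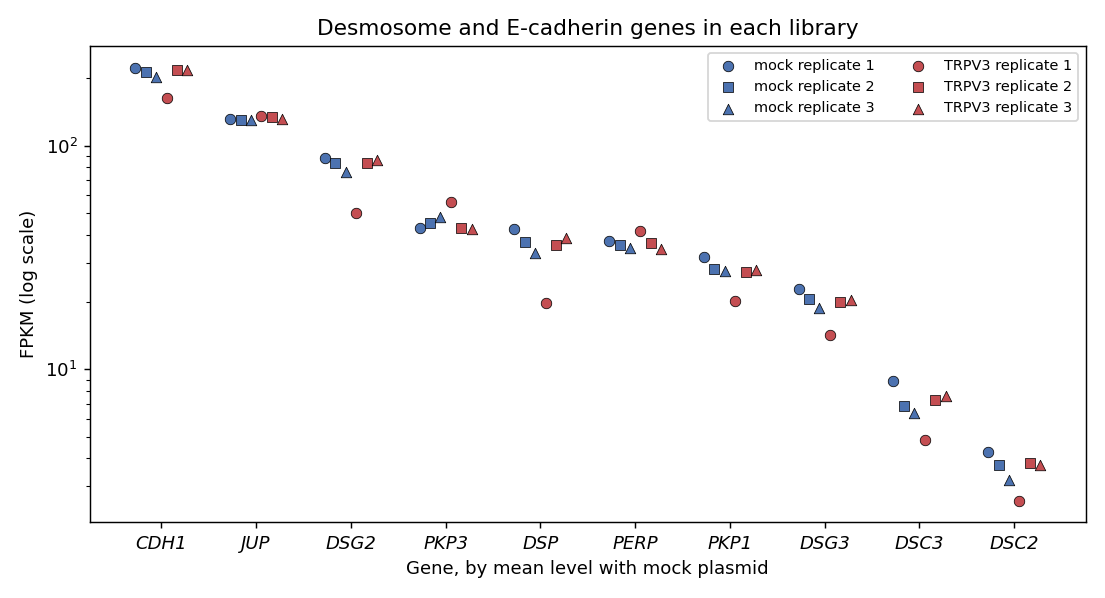
FPKM (log scale) of each of the 10 genes in each of the 6 libraries, with mock libraries in blue and TRPV3 libraries in red and 1 symbol per replicate number. TRPV3 replicate 1 is the lowest point for 7 genes and the highest for JUP, PKP3 and PERP.

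The desmosomal cadherins were led by DSG2, the desmoglein found in most epithelia. DSG2 (ENSG00000046604, chromosome 18, 31498043 to 31549008, plus strand, hg38) was at 88.3, 83.3 and 76.4 FPKM in mock replicates 1 to 3 and at 50.0, 83.6 and 86.1 FPKM in TRPV3 replicates 1 to 3. TRPV3 replicate 1 was low and the other 2 lay inside the mock range, so the groups overlapped. Its fitted log2 fold change of FPKM + 1, TRPV3 against mock, was -0.21 (SE 0.21, limma adjusted p = 0.755), with a 95% interval from -0.70 to 0.28. Without TRPV3 replicate 1 it was 0.04 (SE 0.07), with an interval from -0.12 to 0.20. DSG2 shares 171 exonic bases with DSG2-AS1 on the opposite strand, for which no library held more than 13 reads.

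DSG3 (ENSG00000134757, chromosome 18, 31447795 to 31478702, plus strand), the desmoglein of stratified epithelia and the main antigen in pemphigus vulgaris, was at 22.8, 20.7 and 18.9 FPKM with mock and at 14.2, 20.1 and 20.4 FPKM with TRPV3. DSG3 was fitted at -0.19 on the log2 scale (SE 0.15), with a limma adjusted p of 0.755. Again only TRPV3 replicate 1 lay outside the mock values, and without it the fold change was -0.03 (SE 0.08). DSG2 made up 79.5% to 80.2% of the summed DSG2 and DSG3 FPKM in the mock libraries. That share was 77.8% in TRPV3 replicate 1 and 80.6% and 80.9% in TRPV3 replicates 2 and 3.

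The desmocollins, partners of the desmogleins, were scarcer. DSC3 (ENSG00000134762, chromosome 18, 30990008 to 31042815, minus strand), which in skin is most abundant in the basal layers, was at 8.88, 6.84 and 6.37 FPKM with mock and at 4.83, 7.26 and 7.57 FPKM with TRPV3. DSC2 (ENSG00000134755, chromosome 18, 31058840 to 31102522, minus strand), the desmocollin of most epithelia and of heart muscle, was at 4.27, 3.73 and 3.21 FPKM with mock and at 2.59, 3.80 and 3.73 FPKM with TRPV3. Both genes had their lowest value in TRPV3 replicate 1, and the groups overlapped. Their log2 fold changes were -0.16 (SE 0.18) for DSC3 and -0.12 (SE 0.14) for DSC2, and 0.02 (SE 0.12) and 0.01 (SE 0.10) without that library. The share of DSC3 in the summed desmocollin FPKM was 64.7% to 67.5% in the mock libraries and 65.1% to 67.0% in the TRPV3 libraries. It thus stayed within the mock range in TRPV3 replicate 1 (65.1%), where both genes were low.

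The 4 desmosomal cadherin genes lie in a single cluster of 7 genes on chromosome 18 that spans 559 kb, and the other 3 genes of the cluster were near the limit of detection. DSG1, the desmoglein of the upper epidermis, had at most 4 reads in a library, and DSG4, a desmoglein of the hair follicle, and DSC1, the desmocollin of the upper epidermis, at most 5. No TRPV3 library had a read of DSG1 or DSG4, and neither did mock replicate 2. Mock replicate 1 had 1 read of DSG1 and 0 of DSG4, and mock replicate 3 had 4 and 5. A count of 0 still allows 3 reads, here 0.0313 to 0.0352 FPKM for DSG1 and 0.0351 to 0.0394 FPKM for DSG4. This covers counting error only. A decrease of these genes was not detectable at this depth. No increase beyond 5 reads in a library was seen for DSG1, DSG4 or DSC1.

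**Figure D2:**
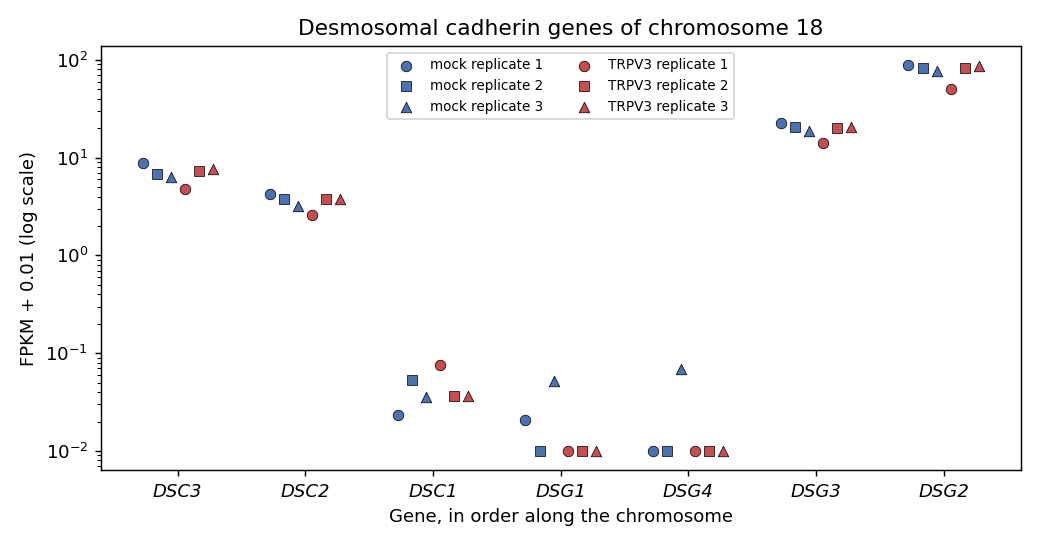
FPKM + 0.01 (log scale) of the 7 desmosomal cadherin genes in their order along chromosome 18, with 1 point per library. DSC3, DSC2, DSG3 and DSG2 lie between 2.59 and 88.3 FPKM, and the 3 genes between them lie under 0.07 FPKM.

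Upstream sequences are shown for DSG2, DSG3 and DSG1, the desmogleins of the cluster with a window in the table used, because these neighbouring genes differed so widely in level. They are the bases of RefSeq's promoter windows (build GRCh38.p14, plus strand) that lie before the gene start in the deposited table, with each CG dinucleotide in capitals. The DSG2 stretch is chr18:31497927-31498042, that of DSG3 is chr18:31447491-31447740 and that of DSG1 is chr18:31317910-31318088.
DSG2: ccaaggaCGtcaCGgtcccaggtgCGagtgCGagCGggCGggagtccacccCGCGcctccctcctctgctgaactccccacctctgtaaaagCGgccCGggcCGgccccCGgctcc
DSG3: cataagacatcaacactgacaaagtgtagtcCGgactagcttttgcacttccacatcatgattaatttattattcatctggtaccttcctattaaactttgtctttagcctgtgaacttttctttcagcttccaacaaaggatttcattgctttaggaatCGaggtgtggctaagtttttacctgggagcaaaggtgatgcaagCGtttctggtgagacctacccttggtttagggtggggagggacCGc
DSG1: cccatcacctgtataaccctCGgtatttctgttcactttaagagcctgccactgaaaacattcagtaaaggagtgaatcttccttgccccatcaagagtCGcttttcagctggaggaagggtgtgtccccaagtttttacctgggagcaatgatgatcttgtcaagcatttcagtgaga
The DSG2 stretch of 116 bases holds 12 CG dinucleotides, the DSG3 stretch of 250 bases holds 4 and the DSG1 stretch of 179 bases holds 2. Over the whole 250 bases before the RefSeq start the counts were 26, 4 and 3. Of 35116 such windows in the table, 19.6% hold at least 26, 70.7% at least 4 and 77.1% at least 3. DSG3, at 20.8 FPKM with mock, and DSG1, near 0, thus had similar counts over the 250 bases. Promoter windows were matched for 8 of the 10 genes.

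The plaque genes differed from each other in TRPV3 replicate 1. JUP (plakoglobin; ENSG00000173801, chromosome 17, 41754604 to 41786931, minus strand), which binds both desmosomal cadherins and CDH1, was the steadiest of the 10 genes. It was at 132, 130 and 131 FPKM in mock replicates 1 to 3 and at 136, 135 and 131 FPKM in TRPV3 replicates 1 to 3. Its values in TRPV3 replicates 1 and 2 lay just above the mock values and the third among them. JUP was fitted at 0.03 on the log2 scale (SE 0.07), with a limma adjusted p of 0.882 and a 95% interval from -0.14 to 0.21, and its sign turned under 3 of the scalings tried. Without TRPV3 replicate 1 it was 0.02 (SE 0.04), with an interval from -0.08 to 0.12.

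DSP (ENSG00000096696, chromosome 6, 7541575 to 7586717, plus strand), the link from the plaque to keratin filaments, varied most among the TRPV3 libraries. It was at 42.5, 36.9 and 33.1 FPKM with mock and at 19.8, 36.1 and 38.8 FPKM with TRPV3. TRPV3 replicates 2 and 3 lay within the mock range and replicate 1 lay far below it. DSP was fitted at the largest difference of the 10, -0.29 on the log2 scale (SE 0.25), with a limma adjusted p of 0.755 and an interval from -0.87 to 0.29. Without TRPV3 replicate 1 it was 0.00400 (SE 0.10). The ratio of JUP to DSP FPKM was 3.11, 3.52 and 3.95 in the mock libraries, 6.86 in TRPV3 replicate 1 and 3.73 and 3.38 in TRPV3 replicates 2 and 3.

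The plakophilins, armadillo-repeat proteins that cluster desmosomal cadherins and desmoplakin, went opposite ways in TRPV3 replicate 1. PKP1 (ENSG00000081277, chromosome 1, 201283452 to 201332993, plus strand), the plakophilin whose loss causes a skin fragility syndrome, was at 31.8, 28.0 and 27.4 FPKM with mock and at 20.3, 27.3 and 27.8 FPKM with TRPV3. PKP3 (ENSG00000184363, chromosome 11, 392614 to 404908, plus strand) was at 42.7, 45.3 and 48.0 FPKM with mock and at 56.2, 43.0 and 42.5 FPKM with TRPV3. TRPV3 replicate 1 was thus the lowest library for PKP1 and the highest for PKP3. Log2 fold changes were -0.21 (SE 0.13) for PKP1, the lowest unadjusted limma p of the 10 (0.157, adjusted p = 0.755), and 0.05 (SE 0.12) for PKP3. They were -0.07 (SE 0.07) and -0.08 (SE 0.06) when that library was left out. PKP3 made up 57.3% to 63.7% of the summed PKP1 and PKP3 FPKM in the mock libraries, 73.5% in TRPV3 replicate 1 and 61.2% and 60.4% in TRPV3 replicates 2 and 3.

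PERP (ENSG00000112378, chromosome 6, 138088505 to 138107511, minus strand), a tetraspan membrane protein of desmosomes that is also a p53 and p63 target, was at 37.3, 36.0 and 34.8 FPKM with mock and at 41.6, 36.7 and 34.5 FPKM with TRPV3. The groups overlapped, and PERP was fitted at 0.06 on the log2 scale (SE 0.09), with a limma adjusted p of 0.826, and at -0.02 (SE 0.05) without TRPV3 replicate 1.

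CDH1 (ENSG00000039068, chromosome 16, 68737225 to 68835548, plus strand, hg38) was at 223, 213 and 203 FPKM with mock and at 163, 218 and 217 FPKM with TRPV3. TRPV3 replicate 1 was below all other libraries and the other 2 lay among the mock values. CDH1 was fitted at -0.11 on the log2 scale (SE 0.13), with a limma adjusted p of 0.784 and an interval from -0.42 to 0.21, and it was at 0.03 (SE 0.05) without that library, with an interval from -0.09 to 0.16. CDH1 FPKM was 1.80, 1.86 and 1.94 times the sum of the 4 desmosomal cadherins in the mock libraries, 2.27 times in TRPV3 replicate 1 and 1.90 and 1.85 times in TRPV3 replicates 2 and 3. CDH1 shares 347 exonic bases with AC099314.1 on the opposite strand, for which no library held more than 2 reads.

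All 10 genes passed the filter of a mean of 1 FPKM, and 0 of the 10 were called by limma with Benjamini-Hochberg adjustment over the 12177 genes tested, where 5 genes (0.0411%) were called. At an unadjusted p under 0.05 (limma) there were 0 of the 10, against 4.48% of all genes tested. Without TRPV3 replicate 1, 0 of 10 were called, against 0.0657% of all genes tested. By limma-voom on the recovered reads 0 of 10 were called with all libraries, against 0.0493% of genes tested, and 0 of 10 without TRPV3 replicate 1, against 0.55%. The 3 TRPV3 libraries lay above all 3 mock libraries for 0 of the 10, against 9.49% of genes tested, and below them for 0 of the 10, against 5.39%. Both counts were again 0 of 10 without TRPV3 replicate 1, against 14.1% and 10.1%. The median log2 fold change of the 10 was -0.14 with all libraries, with 3 above 0 and 7 below, and 0.00949 without TRPV3 replicate 1, with 6 above 0. Over all genes tested the medians were 0.01 and 0.00836. Under TPM scaling the median of the 10 was -0.25, with 0 above 0 and 10 below, against -0.08 over all genes tested. The direction for JUP, PKP3 and PERP turned to below 0 under TPM scaling and quantile normalization. With 3 libraries a group, the intervals with all libraries still allow a log2 change of at least 0.14 in either direction for every gene but PKP1, whose interval ran from -0.53 to 0.10.

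**Figure D3:**
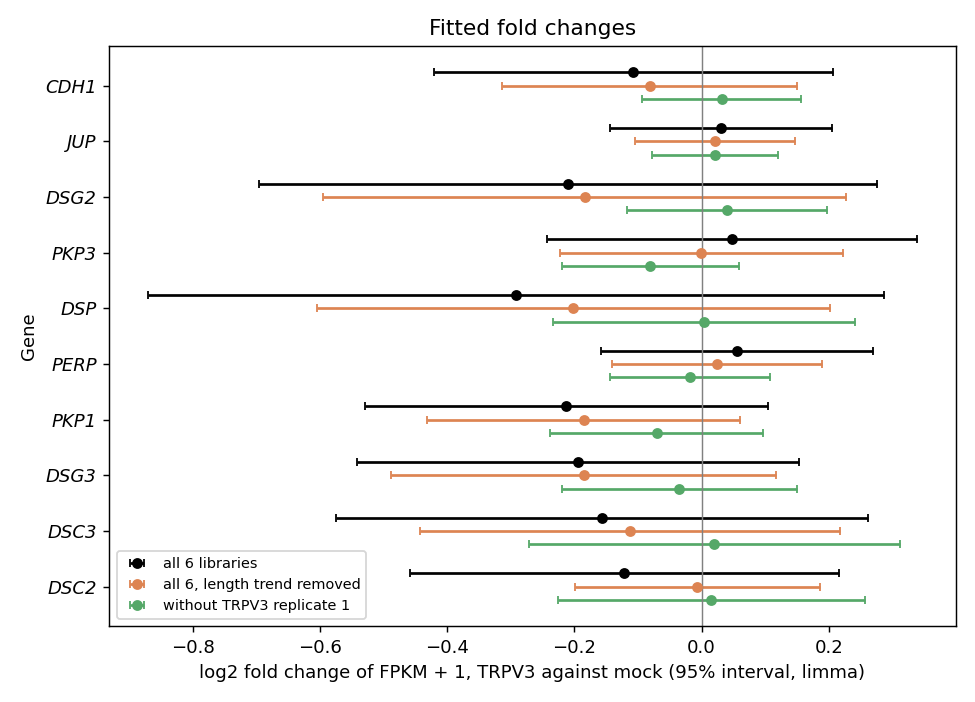
Fitted log2 fold changes of FPKM + 1, TRPV3 against mock, with 95% intervals from limma, for all 6 libraries, for all 6 with the gene-length trend removed, and without TRPV3 replicate 1. Every interval contains 0, and for each gene the interval without TRPV3 replicate 1 is narrower than that with all 6 libraries.

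Set against the mock mean on the log2(FPKM + 1) scale, the 20 values of the 10 genes in TRPV3 replicates 2 and 3 lay between -0.09 and 0.06. The mock libraries themselves spread more widely, from -0.17 to 0.25. Of those 20 values 16 lay within the range of the 3 mock libraries of the same gene, and the 4 outside were JUP in replicate 2, PKP1 in replicate 2, PKP3 in replicate 3 and PERP in replicate 3. The mock libraries also differed from each other in a shared way. Mock replicate 1 held the highest mock value for 9 of the 10 genes, all but PKP3, and mock replicate 3 the lowest for 8 of the 10, all but JUP and PKP3.

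**Figure D4:**
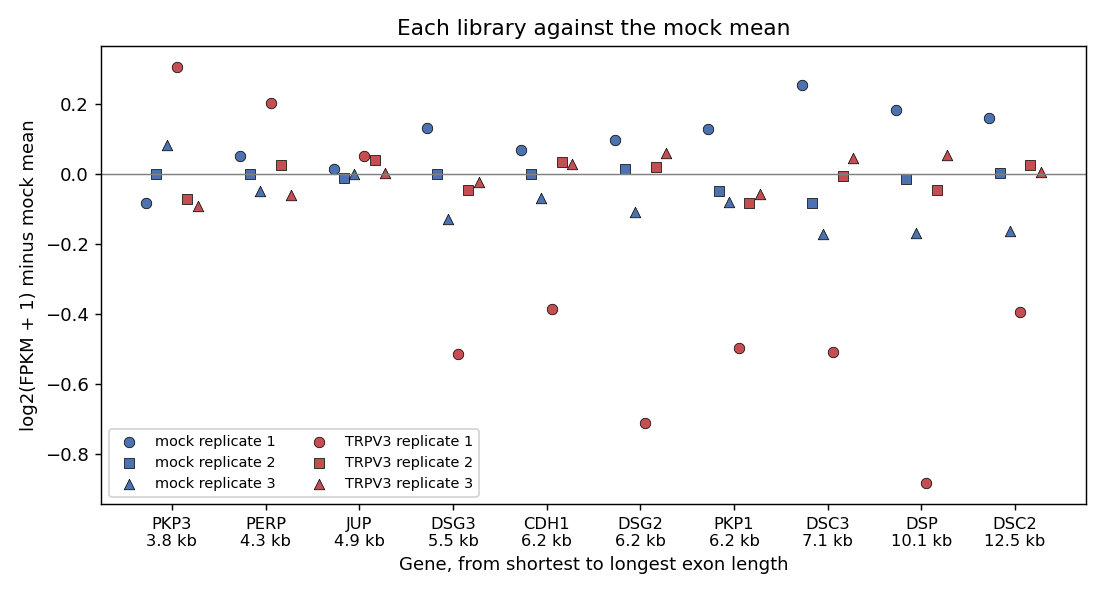
Difference of log2(FPKM + 1) from the mock mean for each gene and library, with genes ordered from the shortest to the longest exon length. TRPV3 replicate 1 is above 0 for the 3 shortest genes and between -0.39 and -0.88 for the 7 longer ones, while TRPV3 replicates 2 and 3 stay between -0.09 and 0.06.

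In TRPV3 replicate 1 the direction followed exon length. The 3 genes above the mock mean were the 3 shortest, PKP3 (3787 bases, 0.31), PERP (4290 bases, 0.20) and JUP (4942 bases, 0.05). The 7 below it had 5525 bases or more, and ran from -0.39 for CDH1 (6177 bases) and DSC2 (12495 bases) to -0.71 for DSG2 (6190 bases) and -0.88 for DSP (10093 bases). Length also moved with this library over all genes tested. The median difference from the mock mean was 0.35 for genes of up to 2000 bases, 0.21 for 2000 to 4000 and 0.04 for 4000 to 5000. It was -0.03 for 5000 to 6000, -0.15 for 6000 to 8000 and -0.29 for longer genes. TRPV3 replicate 1 was the lowest library for 35.8% of all genes tested and the highest for 40.9%. It was the lowest for 40.9% of genes of 5000 to 6000 bases, 56.9% of those of 6000 to 8000 and 72.9% of longer ones. In the same length classes it was the highest for 34.7%, 23.0% and 13.1%.

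After a smooth trend on length had been removed from each library, TRPV3 replicate 1 was still below the mock mean for the same 7 genes. The difference was -0.62 for DSG2, -0.61 for DSP, -0.47 for DSG3, -0.41 for PKP1, -0.37 for DSC3 and -0.30 for CDH1. DSC2, the longest of the 10, came to -0.05, inside the mock values. It was also the least abundant, so the added 1 FPKM shrinks its differences more than those of the other genes. With all libraries and no trend removed, its log2 fold change was -0.12 with 1 FPKM added and -0.15 with 0.1 added. Removal of the length trend with a smaller added value was not tested. PKP3 came to 0.19, PERP to 0.14 and JUP to 0.04. None of the 10 was called in this setting either, and the median log2 fold change was -0.10.

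**Figure D5:**
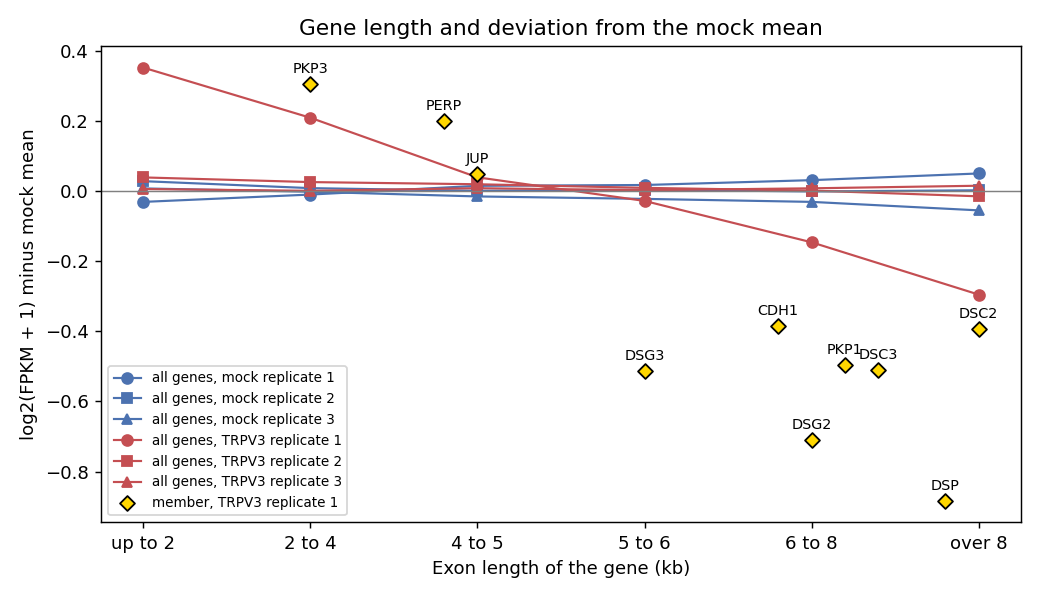
Median difference of log2(FPKM + 1) from the mock mean over all genes tested, by exon length and library (lines), and the 10 genes in TRPV3 replicate 1 (diamonds, moved sideways within a length class for legibility). The line of TRPV3 replicate 1 runs from 0.35 to -0.29 while the other 5 stay within 0.06 of 0, and the 7 genes below 0 lie under that line.

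DSG2, CDH1, PKP1 and CDH3 are of nearly equal length, and their values in TRPV3 replicate 1 spread from -0.71 to -0.06. CDH3 was added after its values were seen, and other genes of this length can lie outside that range. DSG2 (6190 bases), CDH1 (6177 bases), PKP1 (6211 bases) and the P-cadherin gene CDH3 (6236 bases), a close relative of CDH1 in the adherens junction, differed there from the mock mean by -0.71, -0.39, -0.50 and -0.06. CDH3 was at 74.8, 73.1 and 71.6 FPKM with mock and at 70.2, 77.3 and 75.6 FPKM with TRPV3. GC content of the longest annotated transcript was 42.0% for DSG2, 48.6% for CDH1, 56.4% for PKP1 and 54.1% for CDH3. The 3 genes that were high in this library had 66.7% (PKP3), 61.5% (JUP) and 41.2% (PERP), and PKP3 and JUP had the highest GC content of the 10. After a smooth trend on GC content had been removed from each library, in an alternative chosen after seeing the data, TRPV3 replicate 1 differed from the mock mean by 0.24 for PERP, 0.09 for PKP3 and -0.07 for JUP. The 7 other genes then lay between -0.32 (DSC2) and -0.90 (DSP).

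Other genes of the same junctions were taken from lists. Of 8 further desmosome and cornified-envelope plaque genes 4 were tested, and 0 were called in either direction (median log2 fold change -0.15, and -0.05 without TRPV3 replicate 1). PPL (periplakin), a desmoplakin relative, was at 42.8, 41.6 and 38.0 FPKM with mock and at 28.9, 38.2 and 39.5 FPKM with TRPV3. EVPL (envoplakin), its partner, was at 13.3, 14.9 and 14.0 FPKM with mock and at 12.5, 12.3 and 12.7 FPKM with TRPV3. For EVPL all TRPV3 libraries lay below all mock libraries, as they did for 5.39% of all genes tested (log2 fold change -0.16, SE 0.07, limma adjusted p = 0.755). The plakophilins outside the 10 genes, PKP2 and PKP4, were at 12.5 ± 0.367 and 10.7 ± 0.419 FPKM with mock and at 11.7 ± 2.33 and 9.72 ± 1.36 FPKM with TRPV3 (SD, n = 3), and TRPV3 replicate 1 was the lowest library for both.

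Of 16 adherens junction genes 16 were tested and 0 called, 4 above 0 and 12 below, with a median of -0.05. CTNND1 (p120 catenin), which stabilises cadherins at the membrane, was at 80.2 ± 4.14 FPKM in the mock libraries and at 68.5 ± 18.8 FPKM in the TRPV3 libraries. Without TRPV3 replicate 1 its log2 fold change of -0.26 became -0.01. EPCAM, an epithelial adhesion molecule encoded by a gene of 2519 bases, was at 116 ± 2.79 and 134 ± 24.7 FPKM, and its fold change of 0.19 became 0.04. Of 18 tight junction genes tested 0 were called, with a median of 0.04. The claudin genes CLDN7 (98.1 ± 1.96 and 110 ± 17.4 FPKM) and CLDN4 (58.9 ± 2.09 and 68.5 ± 10.7 FPKM) were the most abundant. Of 6 gap junction genes tested 0 were called, with a median of 0.03.

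Keratins, the filaments that desmoplakin binds, showed the opposite sign in TRPV3 replicate 1. Of 12 tested 0 were called, 11 were above 0, and TRPV3 replicate 1 was the highest library for 11 of the 12. It was the highest for 40.9% of all genes tested and for 63.0% of those of 2000 to 4000 bases. The keratin median was 0.19, 0.15 with the length trend removed, and 0.06 without TRPV3 replicate 1. For 5 of the 12 keratins all TRPV3 libraries lay above all mock libraries, against 9.49% of genes tested. All lay below for 0 of the 12, against 5.39%. KRT19 was at 890, 914 and 951 FPKM with mock and at 1376, 904 and 883 FPKM with TRPV3, and is encoded by a gene of 2336 bases. KRT7 was at 502, 506 and 531 FPKM with mock and at 655, 500 and 500 FPKM with TRPV3. KRT17, a keratin of activated keratinocytes that is named here after its values were seen, was at 124, 125 and 125 FPKM with mock and at 219, 151 and 148 FPKM with TRPV3. With all libraries it did not pass (0.44 on the log2 scale, SE 0.16, limma adjusted p = 0.755), nor did it without TRPV3 replicate 1 (0.26, limma adjusted p = 0.126). Limma-voom without that library, which called 0.55% of genes tested against 0.0657% by limma, did call it (0.26, adjusted p = 0.0208).

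Of 9 tested proteases known or thought to cut cadherins 0 were called, with a median of 0.00424. ADAM9 was at 56.7 ± 3.34 and 53.1 ± 7.80 FPKM and ADAM15 at 46.3 ± 2.73 and 46.5 ± 5.41 FPKM. Of 4 tested repressors of CDH1 transcription 0 were called. SNAI2 (Slug), a gene of 3392 exonic bases, was at 6.36, 6.90 and 5.91 FPKM with mock and at 8.04, 7.86 and 7.48 FPKM with TRPV3. For SNAI2 the TRPV3 libraries all lay above the mock libraries, as they did for 9.49% of all genes tested. Its fold change was 0.25 on the log2 scale (SE 0.08), with a limma adjusted p of 0.755. Without TRPV3 replicate 1 it was 0.23, with a limma adjusted p of 0.567. TCF3 was at 24.4 ± 0.54 and 23.8 ± 0.946 FPKM. Of 12 tested epithelial transcription regulators 0 were called, with a median of -0.05, and the most abundant were KLF5 (56.4 ± 4.14 and 52.4 ± 5.09 FPKM) and ELF3 (35.1 ± 0.80 and 36.2 ± 2.89 FPKM). At an unadjusted p under 0.05 (limma), which 4.48% of all genes tested reached, these lists held 0 of 4 further desmosome, 2 of 16 adherens junction, 0 of 18 tight junction and 0 of 6 gap junction genes, 3 of 12 keratins, 1 of 9 proteases, 1 of 4 repressors and 2 of 12 epithelial regulators. Apart from KRT17, limma-voom called 0 genes of these lists with all libraries or without TRPV3 replicate 1. In the paired values of this and the junction lists the first value is the mock mean and the second the TRPV3 mean, each ± SD with n = 3.

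Of the 10 genes, CDH1 was nearest to their mean profile over the 6 libraries (root mean square difference 0.03 on the centred log2(FPKM + 1) scale), and PKP3 was farthest (0.27). Outside the 10, the genes tested whose profile was most like that mean were NRCAM (0.00867), a cell adhesion molecule of the immunoglobulin family, SULF2 (0.0119), an extracellular sulfatase, and SF3A1 (0.0123), a splicing factor. All 3 have between 6329 and 8193 exonic bases. Each had its lowest value in TRPV3 replicate 1, which follows from their choice by likeness to a profile that is lowest there. Longer genes were lower in that library, so their length is not a separate result.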

How the data were processed

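RNA of 6 SZ95 libraries, 3 per group, was sequenced. Per the submitters' processing notes reads were aligned with HISAT2 2.0.5 to hg38; the sources used here name no counting tool or strand setting. The authors deposited FPKM per gene, per the file headers, with a gene length. FPKM times length gave whole multiples of a single step for 100% of values (tolerance 0.02), which gave reads per library. The exon lengths of all 10 genes equal those of GENCODE 29.

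The analysis used limma 3.58.1 in R 4.3.3 on log2(FPKM + 1) (group as the only term, empirical Bayes with a mean-variance trend, Benjamini-Hochberg adjustment, adjusted p under 0.05). Genes whose mean over the 6 libraries reached 1 FPKM were tested. The fit was tested on simulated data. The simulation held no library that stood apart and no length trend, so it does not cover those features of these libraries. The genes and lists were chosen with earlier results of these data known. Named were the 10 genes and, from each other list, called genes and the 2 of highest mean FPKM. PKP2, PKP4, CDH3, KRT17, the other genes of the chromosome 18 cluster, and the markers VIM, AWAT1, AWAT2 and MC5R were added after their values were seen. Alternatives were another pseudocount, filter, scaling or variance model, a replicate block, left-out libraries, a removed length trend and limma-voom; those chosen after seeing the data were a removed GC trend, TRPV3 replicate 1 left out together with mock replicate 3, and the length trend removed without TRPV3 replicate 1. The p-values measure the spread between these 6 libraries. Figures used Python 3.11.15 and matplotlib 3.10.9.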

Additional observations from a re-analysis of the deposited data

How the results depend on the processing

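Of the 10 genes 0 were called in each of the 21 alternatives. When 1 library was left out, genes called over the whole table, 5 in all, ran from 2 to 8. They were 2 without the filter, 3 at a filter of 5 FPKM (where 9 of the 10 genes were tested), 67 by limma-voom without TRPV3 replicate 1, 10 without that library and mock replicate 3, and 8 with the length trend removed and that library left out. With the replicate number as a block 3 genes, 0 of them among the 10, were called. Same-numbered libraries did not deviate together (correlations over genes -0.27, -0.04 and -0.17). With so few libraries a group, and TRPV3 replicate 1 standing apart, these correlations cannot show whether same-numbered libraries shared a batch. Of the 10 genes, those without overlap between groups, 0 as reported, were 1 each under quantile normalization, total-read scaling and the removed length trend (14.4%, 15.5% and 15.6% of genes tested), 2 without TRPV3 replicate 1 and mock replicate 3 (38.1%), 2 without TRPV3 replicate 1 after length removal (26%), and 0 to 2 when 1 library was left out (21.9% to 28.4%). The median over the 10 genes moved by less than the spread between libraries (0.19) in every alternative. That spread includes TRPV3 replicate 1, which stood apart, so the comparison cannot show that the median was stable. The median was -0.14 with all libraries, ran from -0.22 to 0.00949 when 1 library was left out and was down to -0.25 under TPM scaling.

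Signs turned as follows, always for log2 fold changes that were not called; the cause was not tested. By limma-voom without TRPV3 replicate 1 the values were DSG2 0.0404, DSC2 0.0226, DSC3 0.0244, DSP 0.00452, CDH1 0.0318, PKP3 -0.0830 and PERP -0.0182. With the length trend removed and that library left out they were DSG2 0.0347, DSC2 0.0152, DSC3 0.0163, DSP 0.00279, CDH1 0.0266, PKP3 -0.0945 and PERP -0.0307, and with the length trend alone removed PKP3 was -0.000496. Under TPM scaling they were JUP -0.0667, PKP3 -0.0486 and PERP -0.0407, under quantile normalization JUP -0.12, PKP3 -0.0508 and PERP -0.0163, and under total-read scaling JUP was -0.0174. Without TRPV3 replicate 1 and mock replicate 3 they were PKP3 -0.0393 and PERP -0.0428. With 1 library left out the values ran from -0.35 to 0.0396 for DSG2, from -0.20 to 0.0150 for DSC2, from -0.26 to 0.0202 for DSC3, from -0.46 to 0.00400 for DSP, from -0.18 to 0.0315 for CDH1, from -0.0809 to 0.12 for PKP3 and from -0.0180 to 0.11 for PERP, and the sign turned only without TRPV3 replicate 1. DSG3 and PKP1 stayed below 0 in every alternative. The planned edgeR and DESeq2 fits on recovered reads were not run; limma-voom was run on those reads.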
